A study of Mus musculus with 24 samples.

Results

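Neurospheres grown from mouse hypothalamus answered 4 hours of dexamethasone with large rises in a few genes and small changes, up and down, in many. The comparison described here pools all 12 hypothalamus libraries of a series of 24 samples, chosen by the region named in the sample titles: 6 libraries from cultures given dexamethasone and 6 from cultures given ethanol vehicle. Among 12400 genes tested, 1812 rose and 1896 fell. Of the rises, 95 reached a log2 change of 1, a doubling, and 18 reached 2. Of the falls, 10 reached -1 and 0 reached -2.

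The series measured total RNA by stranded sequencing in primary neural stem and progenitor cultures, floating neurospheres from brains at embryonic day 14.5, from cortex or hypothalamus and from female or male embryos. Cultures at passage 3 received 100 nM dexamethasone or ethanol for 4 hours. The hypothalamus libraries were 3 female and 3 male biological replicates for each treatment, and the dexamethasone and vehicle libraries of 1 sex that share a replicate number are called a culture here. The labels give no genotype, strain or transgene, and do not say whether a replicate was 1 embryo, a litter or a pool, so p-values measure only the spread between these 6 cultures.

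Dexamethasone is a synthetic glucocorticoid. It binds the glucocorticoid receptor, a transcription factor held by chaperones in the cytoplasm until hormone arrives, which then enters the nucleus and acts at DNA elements of its own or through other factors such as AP-1 and NF-kappaB. Genes with their own elements typically rise within hours, and falls are often attributed to interference with other factors or to loss of cofactors. In neural stem cells, glucocorticoids are known to slow proliferation and to act on metabolism and on the circadian clock.

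The hypothalamus libraries held 16.04 to 25.49 M reads in genes, of which 30.4% to 42.8% lay in 4 ribosomal-RNA-like entries, leaving 10.13 to 15.96 M. The medians of that share were 35.9% in vehicle and 38.6% in dexamethasone libraries. Levels are given in reads per M reads (RPM), as scaled by the authors, and 12258 to 12496 genes reached 1 RPM. Progenitor markers were present in every library, with Nes at 381 to 869 RPM, Sox2 at 161 to 308 RPM and Vim at 2008 to 2944 RPM. Markers of hypothalamic identity were mostly near 0, with Rax at no more than 0.0522 RPM and Nkx2-1 at no more than 0.274 RPM, so the region rests on the labels. Six3 reached the filter and was at 0.139 and 0.157 RPM in female replicate 2 and at 2.21 to 9.49 RPM elsewhere. The female libraries held 306 to 590 RPM of Xist and male replicates 1 and 3 at most 0.506 RPM. Male replicate 2 held 26.4 and 30.1 RPM, together with Ddx3y at 66.6 and 81.7 RPM, which goes against its label in part. Without it 1242 genes rose and 1292 fell, of which 1210 and 1266 were among those called with all cultures. Without female replicate 2, 1697 rose and 1846 fell, and without male replicate 3, 1150 rose and 1376 fell. In bulk RNA, fewer cells of a type and less RNA per cell cannot be told apart.

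The promoters of the 3 largest rises and of the 3 largest falls that could be taken from RefSeq's promoter table for GRCm38.p6 are shown because these genes mark both ends of the response. Each run covers 250 bases before the annotated start and 50 from it, and the capital letter marks the start base. Fam107a lies at chr14:8317558-8317857 on the minus strand, Hif3a at chr7:17062378-17062677 on the minus strand and Cftr at chr6:18170437-18170736 on the plus strand. Diras2 lies at chr13:52530787-52531086 on the minus strand, Wnt7a at chr6:91411304-91411603 on the minus strand and Pde1b at chr15:103502784-103503083 on the plus strand. For Fam107a and Pde1b the window is the first of 3 listed. The longer run of capitals in Diras2 is TGATTCA, a match to TGANTCA, the letters searched for AP-1 with any base allowed as N. Its first base lies at -112 from the start.
Fam107a: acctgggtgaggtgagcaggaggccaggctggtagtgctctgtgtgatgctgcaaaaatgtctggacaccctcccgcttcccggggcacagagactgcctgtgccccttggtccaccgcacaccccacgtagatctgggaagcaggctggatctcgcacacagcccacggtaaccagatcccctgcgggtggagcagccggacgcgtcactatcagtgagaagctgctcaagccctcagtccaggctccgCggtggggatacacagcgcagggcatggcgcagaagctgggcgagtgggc
Hif3a: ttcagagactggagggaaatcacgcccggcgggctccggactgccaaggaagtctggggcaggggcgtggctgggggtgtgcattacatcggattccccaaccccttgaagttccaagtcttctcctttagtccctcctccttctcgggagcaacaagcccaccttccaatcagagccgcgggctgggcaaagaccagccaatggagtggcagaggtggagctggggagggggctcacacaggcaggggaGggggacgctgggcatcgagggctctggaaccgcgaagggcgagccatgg
Cftr: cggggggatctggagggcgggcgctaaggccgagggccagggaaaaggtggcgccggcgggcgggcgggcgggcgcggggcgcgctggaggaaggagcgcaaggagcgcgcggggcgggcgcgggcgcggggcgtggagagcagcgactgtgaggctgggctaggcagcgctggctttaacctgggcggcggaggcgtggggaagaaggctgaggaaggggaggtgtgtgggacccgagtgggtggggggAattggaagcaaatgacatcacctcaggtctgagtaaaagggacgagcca
Diras2: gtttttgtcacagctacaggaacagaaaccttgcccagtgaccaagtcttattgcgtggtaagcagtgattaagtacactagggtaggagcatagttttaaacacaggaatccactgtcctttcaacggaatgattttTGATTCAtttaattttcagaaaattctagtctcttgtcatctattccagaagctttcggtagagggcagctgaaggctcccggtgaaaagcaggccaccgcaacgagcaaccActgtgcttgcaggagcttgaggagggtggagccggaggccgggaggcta
Wnt7a: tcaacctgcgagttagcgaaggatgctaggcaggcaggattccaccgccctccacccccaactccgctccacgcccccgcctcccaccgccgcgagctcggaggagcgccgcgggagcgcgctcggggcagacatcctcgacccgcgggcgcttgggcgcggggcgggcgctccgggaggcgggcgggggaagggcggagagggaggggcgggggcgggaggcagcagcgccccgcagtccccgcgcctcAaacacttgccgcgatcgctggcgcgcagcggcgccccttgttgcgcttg
Pde1b: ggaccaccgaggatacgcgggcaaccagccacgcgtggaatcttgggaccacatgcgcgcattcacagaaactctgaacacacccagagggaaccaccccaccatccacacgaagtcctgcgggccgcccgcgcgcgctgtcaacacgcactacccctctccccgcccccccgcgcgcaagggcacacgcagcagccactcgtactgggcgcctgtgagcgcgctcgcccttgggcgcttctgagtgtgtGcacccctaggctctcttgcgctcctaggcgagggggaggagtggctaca

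Of the genes tested, 29.9% passed limma's adjusted p of 0.05 in the fit that held culture as a block, 14.6% higher and 15.3% lower. The median change of the called genes was 0.23 for the rises and -0.29 for the falls, on the log2(RPM + 1) scale used throughout, which understates the change of genes at low level. The median over all genes tested was 0.0048. At a size of 0.5 or more there were 310 rises and 206 falls. Called rises and falls were alike in how many cultures showed them: 1477 of the rises and 1566 of the falls had the same sign in all 6 cultures. The calls were made on these same cultures, so these counts describe and do not test. The groups separated for 3.27% of the genes tested, and here the directions differed: the 6 dexamethasone libraries lay wholly above the 6 vehicle libraries for 2.18% of the genes tested and wholly below for 1.1%. Among called genes these were 264 rises and 135 falls.

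**Figure D1:**
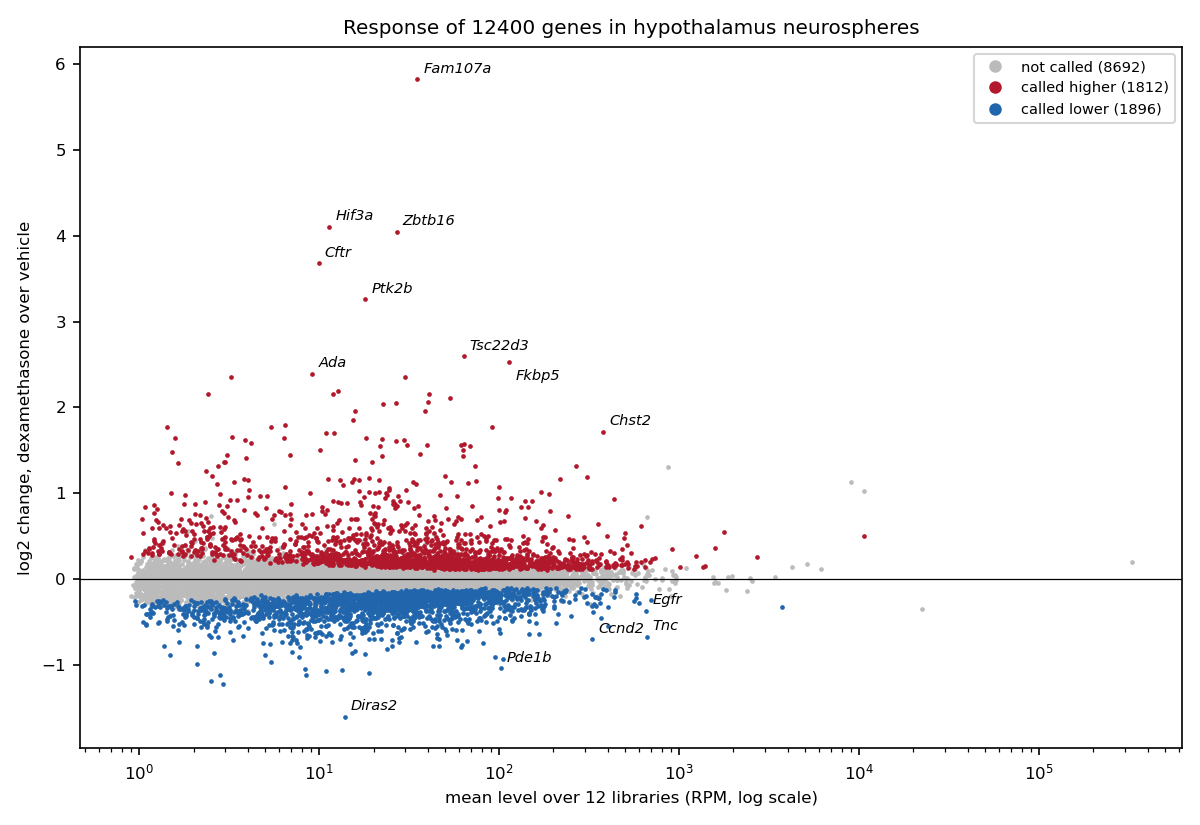
Change with dexamethasone (log2, vertical axis) against the mean level over the 12 hypothalamus libraries (RPM, log scale) for the 12400 genes tested, with 1812 genes called higher in red, 1896 called lower in blue and the others in grey. Rises extend to 5.83 and falls to -1.60.

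The falls came into view with the pooled, blocked comparison. A cut of 0.05 was applied here to the adjusted p deposited by the authors for each sex. It left 15 genes lower in the female and 11 in the male cultures, 19 in either, and all 19 were called lower here. The same cut left 190 higher in either sex, of which 158 were called higher here. With 3 female cultures and no block, limma called 6 falls and 99 rises, and with 3 male cultures 0 falls and 28 rises, where 960 genes had an unadjusted p under 0.05. With the block these became 363 falls and 529 rises in female and 993 falls and 631 rises in male cultures. Pooling without the block gave 201 falls and 325 rises, all of them also called with it. Of the falls called in the pooled comparison, 884 were called in neither sex alone, and 294 in both. Of the rises, 1096 were called in neither and 390 in both. Calls that held whichever culture was left out numbered 968 rises and 1119 falls.

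Fam107a, an actin-associated protein known as a stress-responsive glucocorticoid target, had the largest rise among genes at a mean of 5 RPM or more with the same sign in all 6 cultures. Its level was 0.0925, 0.136 and 0.587 RPM as the lowest, median and highest of the 6 vehicle libraries, and 48.4, 62.7 and 96.9 RPM with dexamethasone. The groups did not overlap, and the change was 5.83 ± 0.15 (SE, n = 6 cultures, adjusted p 1.48e-09, limma). Hif3a, a hypoxia-inducible factor subunit, went from 0.163, 0.31 and 0.509 RPM to 12.2, 23.1 and 29.5 RPM, without overlap, a change of 4.11 ± 0.15 (adjusted p 1.77e-08). Zbtb16, the zinc finger repressor PLZF, went from 1.16, 1.87 and 4.97 RPM to 44.2, 50.4 and 61.3 RPM, again without overlap (4.05 ± 0.19). All 3 were low in vehicle libraries.

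Cftr, a chloride channel, stood at 0.138, 0.422 and 1.85 RPM in vehicle and 12.9, 18.8 and 24.9 RPM in dexamethasone libraries, a change of 3.68 ± 0.12 without overlap. The kinase gene Ptk2b, related to focal adhesion kinase, stood at 0.979, 2.6 and 4.92 RPM and at 17.8, 34.2 and 45.3 RPM, a change of 3.26 ± 0.14 without overlap. The next of the 15 largest rises were long-known receptor targets already present in vehicle libraries. Tsc22d3, the gene for the anti-inflammatory protein GILZ, was at 12, 15.7 and 23.1 RPM and at 59, 111 and 158 RPM (2.60 ± 0.12). Fkbp5, a co-chaperone that restrains the receptor itself, was at 27, 33.3 and 37 RPM and at 156, 190 and 249 RPM (2.54 ± 0.09). Neither showed overlap between the groups.

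The other 8 rises ranged from 2.05 to 2.40, none with overlap between the groups. They were the adenosine deaminase gene Ada, the lysophospholipid transporter Mfsd2a, the lipogenic regulator Thrsp, the adhesion docking protein Nedd9, the calcium-activated potassium channel Kcnn2, the transcription factor Klf9, the phagocytic receptor Mertk and the clock gene Per1. Klf9 was the most even of them, at 16.1, 20 and 21.7 RPM in vehicle and 81.5, 85.3 and 96.8 RPM in dexamethasone libraries, with changes between 1.96 and 2.31 in the 6 cultures. Thrsp was uneven in level, at 8.78 to 45.7 RPM with dexamethasone, while its change by culture stayed between 1.74 and 2.72.

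**Figure D2:**
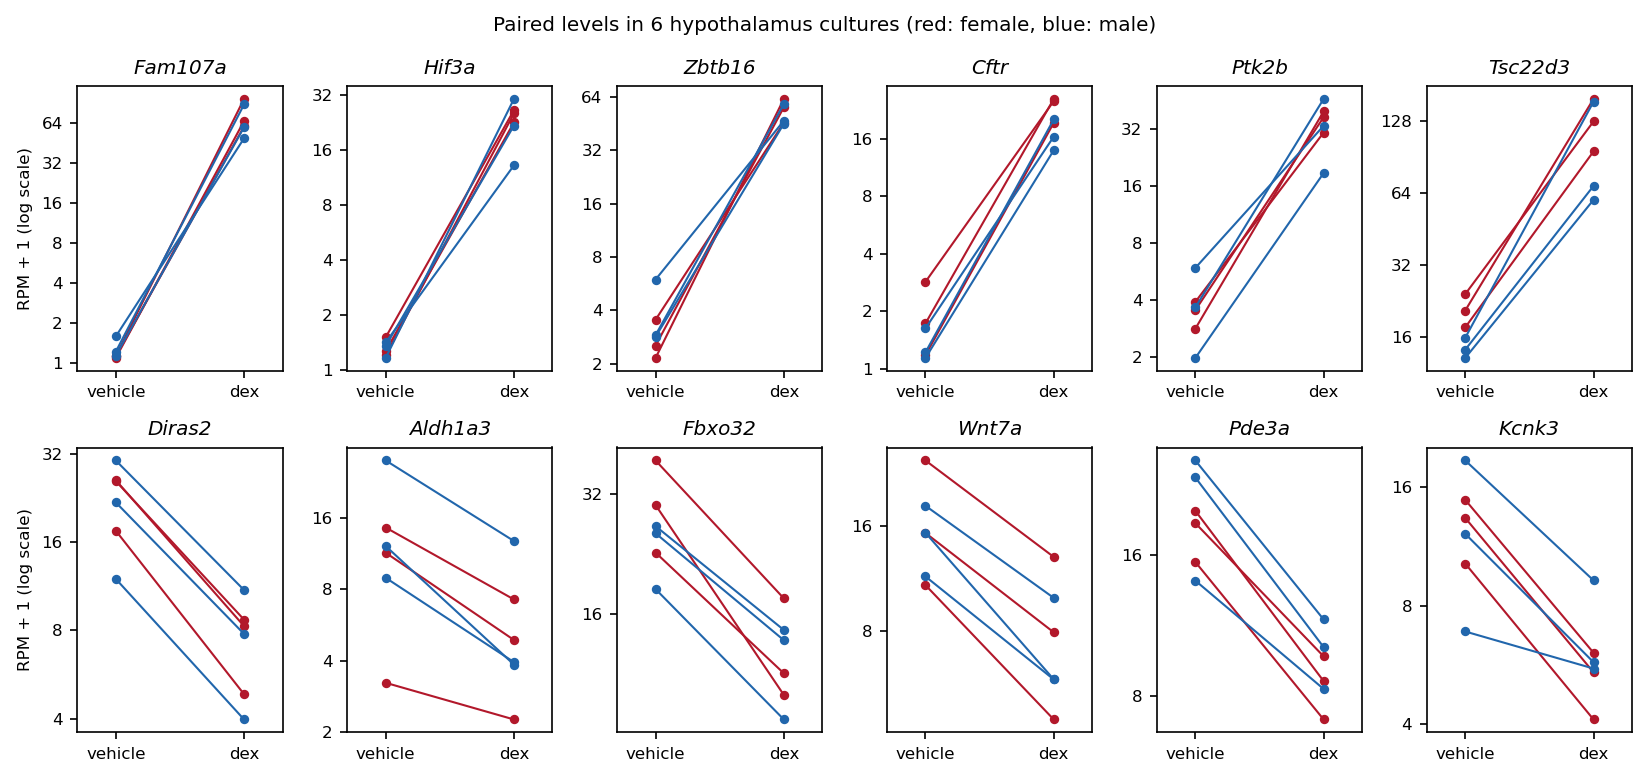
Levels of the 6 largest rises (top) and the 6 largest falls (bottom), as RPM + 1 on a log scale, in vehicle and dexamethasone (dex) libraries, with a line for each of 6 cultures, female in red and male in blue. Every line goes up in the top row and down in the bottom row, and the falls start from levels that differ between cultures, as for Aldh1a3 at 2.22 to 27 RPM in vehicle.

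Diras2, a small GTPase of the Ras family, had the largest fall. Its level was 11, 22.8 and 29.3 RPM as the lowest, median and highest of the vehicle libraries, and 2.97, 7.02 and 9.97 RPM with dexamethasone. The groups did not overlap, and the change was -1.60 ± 0.06 (adjusted p 3.28e-08), between -1.85 and -1.47 in the 6 cultures. Its promoter, shown above, was the only one of the 6 printed with a match to any motif searched. The cyclic nucleotide phosphodiesterases Pde1b and Pde3a both fell without overlap. Pde1b went from 92.9, 143 and 166 RPM to 45.3, 67.3 and 82.5 RPM (-1.04 ± 0.07, adjusted p 1.09e-06), and Pde3a from 13.1, 18.3 and 24.5 RPM to 6.11, 8.15 and 10.7 RPM (-1.07 ± 0.07). Fbxo32, a ubiquitin ligase subunit known in skeletal muscle for rising with glucocorticoids, fell here, from 17.5, 25 and 37.7 RPM to 7.72, 11.6 and 16.5 RPM (-1.09 ± 0.08, adjusted p 5.48e-06), without overlap.

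Secreted ligands and membrane receptors made up part of the rest. Wnt7a, a Wnt ligand, went from 9.84, 14.3 and 23.8 RPM to 3.45, 5.87 and 12.1 RPM (-1.07 ± 0.08, adjusted p 3.71e-06), with the groups overlapping because the cultures started from different levels. Hbegf, an EGF receptor ligand, went from 64.1, 117 and 216 RPM to 34.9, 61.7 and 106 RPM (-0.91 ± 0.08), also with overlap. The chemokine receptor Cxcr4 went from 5.21, 7.38 and 9.53 RPM to 2.47, 3.59 and 3.89 RPM (-0.97 ± 0.09) without overlap. S1pr3, a sphingosine 1-phosphate receptor, changed by -0.89 ± 0.11 and the potassium channel Kcnk3 by -1.06 ± 0.12, each with overlap.

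Aldh1a3, which makes retinoic acid, went from 2.22, 10.8 and 27 RPM to 1.25, 3.41 and 11.8 RPM (-1.12 ± 0.12, adjusted p 4.9e-05), with changes between -1.66 and -0.51 in the 6 cultures. The remaining falls of the 15 lay between -0.93 and -0.85: Mtss1l and Nhs, linked to actin remodelling, the Rab effector Sytl2, and the nuclear proteins Irf2bpl and Trim66. Each of the 30 genes passed under every setting that kept the block. Without it 26 passed, and the 4 that missed were Aldh1a3 (adjusted p 0.204), Hbegf (0.136), Nhs (0.211) and S1pr3 (0.251).

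Counted as reads rather than as ratios, the response moved other genes. The largest gains in mean level among called genes were the non-coding RNA Rn7sk, from 8869 ± 2982 to 12380 ± 3360 RPM (SD, n = 6), Rpph1, Ckb, Chst2 and Tmsb4x. Chst2, a carbohydrate sulfotransferase, went from 128, 168 and 262 RPM to 471, 562 and 758 RPM (1.72 ± 0.06, adjusted p 1.31e-08) without overlap. The largest losses were Malat1, from 4180 ± 759 to 3310 ± 487 RPM, the matrix protein tenascin C (Tnc), the EGF receptor Egfr, the inositol transporter Slc5a3 and the cyclin Ccnd2. Egfr went from 637, 750 and 823 RPM to 495, 579 and 617 RPM (-0.37 ± 0.04, adjusted p 0.000131), without overlap. Of these 10 genes, Chst2 and Egfr were the ones whose groups did not overlap.

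Of 34 listed glucocorticoid targets, 31 passed the filter on low levels and 30 of them rose, against 14.6% of all genes tested, with a median change of 1.44 against 0.0048. The transcription factor gene Cebpd was at 3.38, 5.45 and 11.3 RPM in vehicle and 14.8, 25.6 and 31.5 RPM in dexamethasone libraries, without overlap (1.86 ± 0.15). The metallothionein gene Mt2 changed by 1.78 ± 0.09 and Mt1 by 1.32 ± 0.07. Sgk1, a kinase often used as a marker of receptor action, was the member that did not pass, at 20.9, 31.5 and 53.1 RPM against 18.5, 27.4 and 38.6 RPM (-0.17 ± 0.07, adjusted p 0.116). Without female replicate 2, 1 member was called lower. Lists were chosen with earlier results of these data in view, so their counts describe and do not test.

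Nr3c1, the gene for the glucocorticoid receptor itself, fell. It was at 80.2, 89.2 and 94.3 RPM in vehicle and 68.3, 74.3 and 89.6 RPM in dexamethasone libraries, lower in 6 of 6 cultures with overlap between the groups (-0.21 ± 0.05, adjusted p 0.00788). The mineralocorticoid receptor gene Nr3c2 (-0.43 ± 0.10) and the corepressor gene Ncor1 (-0.17 ± 0.05) also fell. Cav1, the membrane scaffold caveolin, rose (0.68 ± 0.07). None of these 4 passed without the block. In the circadian list of 14, 4 rose and 2 fell, against 14.6% and 15.3% of all genes tested, and 8 were not called. The light-responsive clock genes Per1 and Per2 rose (Per2 1.01 ± 0.08), as did Tef and Cry1. Nr1d1 and Bhlhe40 fell, a share of falls near the background.

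**Figure D3:**
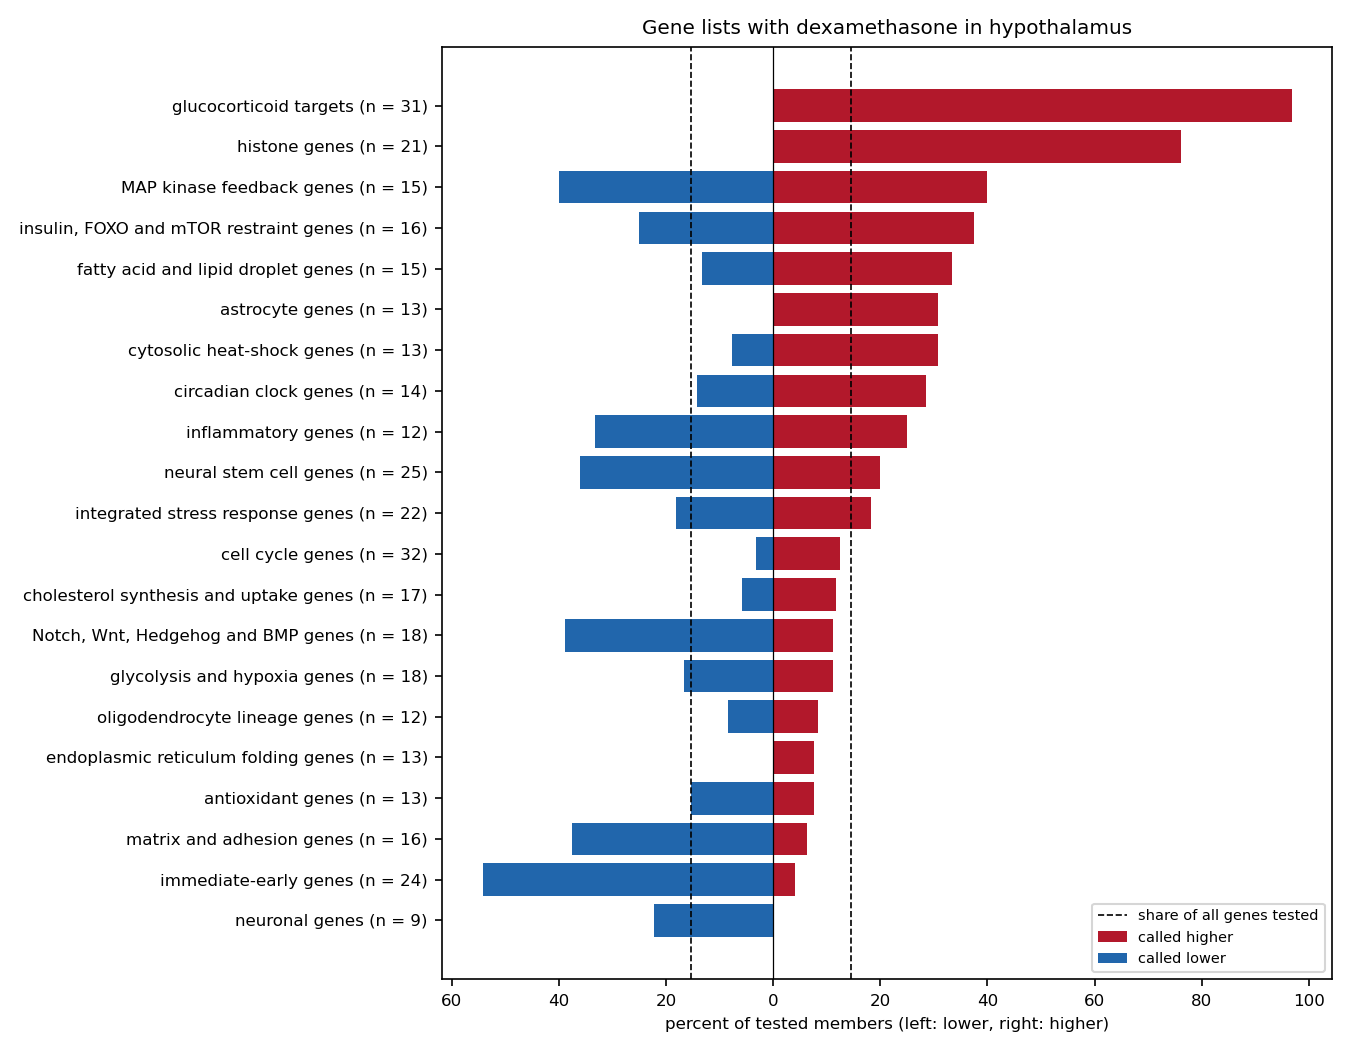
Percent of tested members of 21 gene lists called lower (blue, to the left) and higher (red, to the right) with dexamethasone, with the number tested beside each name and dashed lines at the shares of all genes tested, 15.3% lower and 14.6% higher. Glucocorticoid targets and histone genes lie furthest to the right, and immediate-early genes furthest to the left.

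Immediate-early genes, the transcription factors and regulators that cells switch on within minutes of a stimulus, were the list with the largest share of falls. Of 24 tested, 13 fell, against 15.3% of all genes, and 1 rose. Jun, an AP-1 subunit, went from 90, 127 and 143 RPM to 62, 82.1 and 90.6 RPM (-0.63 ± 0.04, adjusted p 2.51e-06), lower in 6 of 6 cultures with the ranges just overlapping. Fosl2, another AP-1 subunit, changed by -0.64 ± 0.06, Klf4 by -0.74 ± 0.08, Myc by -0.59 ± 0.07 and Egr1 by -0.43 ± 0.07. Fos fell by less, from 17.1, 29.3 and 36.7 RPM to 14.2, 24.4 and 31.1 RPM (-0.23 ± 0.05). Arc was the rise (0.53 ± 0.14, adjusted p 0.0137), and it did not pass without male replicate 3. Without the block 2 of the list passed as lower.

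The promoters of falling genes were read for the same AP-1 letters, a looser pattern than the usual AP-1 site because N allows any base. In windows of 300 bases, TGANTCA on either strand occurred in 14 of the 137 genes lower by at least 0.5 that the promoter table held (10.2%), and in 377 of 9050 genes tested (4.17%). Over all called falls the share was 4.67% and over all called rises 4.98%. Among genes higher by at least 1, a stricter cut than that used for the falls, it was 5 of 77 (6.49%). The receptor half-site AGAACA occurred in 11.4% of tested genes, in 7.79% of the genes higher by at least 1 and in 9.62% of the called falls. The full receptor palindrome, AGAACA and its inverse TGTTCT with any 3 bases between them, occurred in 0 of 9050, and the cAMP response element TGACGTCA in 3.57% of tested genes and 3.65% of those lower by at least 0.5. Of all 27025 promoters in the table, 7.93% held the AP-1 letters and 19% the half-site. A match is a run of letters in a short window and says nothing of binding.

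In the insulin, FOXO and mTOR list of 16, 6 rose and 4 fell, against 14.6% and 15.3% of all genes tested, with a median of 0.09. Of the rises, Sesn1, Klf15 and Ddit4 are also on the target list. Sesn1, an inhibitor of mTOR signalling, went from 26.1, 30.8 and 51.2 RPM to 62.3, 92.3 and 126 RPM (1.44 ± 0.08, adjusted p 3.3e-07), and Pik3r1, the regulatory subunit of PI3 kinase, from 212, 310 and 356 RPM to 488, 569 and 632 RPM (0.93 ± 0.06), both without overlap. The insulin receptor substrate Irs1 (-0.48 ± 0.04), the receptor Insr (-0.37 ± 0.07) and the transcription factor Foxo1 (-0.32 ± 0.08) fell. In the MAP kinase feedback list of 15, 6 rose and 6 fell, with a median of 0.03, and Errfi1 and Dusp1 among the rises are shared with the target list. Errfi1, an inhibitor of the EGF receptor, went from 10, 13.1 and 14.2 RPM to 27.1, 41.5 and 51.5 RPM without overlap (1.61 ± 0.10), and the phosphatase gene Dusp6 changed by 0.44 ± 0.09. The falls included Spry2 (-0.29 ± 0.06), Spry4 (-0.31 ± 0.08) and Phlda1 (-0.66 ± 0.09). The count of rises in that list was 3 without female replicate 1 and 3 without male replicate 2.

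Of 25 tested genes of the progenitor state, 9 fell and 5 rose, against 15.3% and 14.6% of all genes tested, with a median of -0.14. Sox2, a transcription factor that maintains neural stem cells, went from 206, 223 and 308 RPM to 161, 182 and 194 RPM (-0.41 ± 0.06, adjusted p 0.000635), and the RNA-binding protein gene Msi1 from 27.7, 33.5 and 44.4 RPM to 18.1, 23 and 27.3 RPM (-0.60 ± 0.08), both without overlap. Sox9 changed by -0.79 ± 0.10 and Nes by -0.28 ± 0.05. Fgfr3, a growth factor receptor, rose by 0.79 ± 0.09 and Id1 by 0.47 ± 0.06. The rises numbered 3 under the scaling that left out ribosomal-RNA-like entries, and 3 in every fit without 1 culture apart from that without female replicate 2. In the Notch, Wnt, Hedgehog and BMP list of 18, 7 fell and 2 rose, with a median of -0.18. Among the falls were the Wnt effector Tcf7l2 (-0.68 ± 0.11), the Wnt target Lgr5 (-0.66 ± 0.06), the Notch ligand Jag1 (-0.44 ± 0.05) and the Hedgehog receptor Ptch1 (-0.45 ± 0.11).

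Of 13 astrocyte genes 4 rose and 0 fell, against 14.6% and 15.3% of all genes tested, and 9 were not called, with a median of 0.07. Glul is also on the target list. Gjb6, the gap junction protein connexin 30, went from 0.046, 0.0997 and 0.312 RPM to 1.29, 3.73 and 8.98 RPM (2.16 ± 0.23, adjusted p 5.15e-05) without overlap. Glul, glutamine synthetase, went from 152, 168 and 310 RPM to 289, 437 and 550 RPM (1.19 ± 0.08), with overlap through 1 vehicle library. Aldoc rose by 0.64 ± 0.07 and Gfap by 0.69 ± 0.15, the latter from very different starting levels of 1.45 to 96.2 RPM. The astrocyte transporter gene Slc1a3 did not pass, at 665 to 1060 RPM in vehicle and 713 to 1154 RPM in dexamethasone libraries. Without female replicate 2, 7 astrocyte genes were called higher. Of 12 oligodendrocyte lineage genes, the proteoglycan gene Cspg4 rose (0.78 ± 0.08) and Nkx2-2 fell (-0.64 ± 0.07), and of 9 neuronal genes, Elavl4 and Syt1 fell.

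Few markers of other cell types that a brain dissection could carry along passed the filter. They were 2 of 7 endothelial, 2 of 7 mural, and 1 of 5 ependymal and choroid markers. Of these 0 were called, against 29.9% of all genes tested, too few to show whether such cells changed. Summed over all listed members, endothelial markers were at 5.97 to 26.0 RPM in vehicle and 4.81 to 24.1 RPM in dexamethasone libraries. Mural markers summed to 26.4 to 75.4 and 35.0 to 62.1 RPM. Those of microglia summed to at most 0.869 RPM with C1qa and C1qb at 0, and those of mesenchymal and erythroid cells passed the filter for 0 members. Six3 was the 1 region marker called (-0.30 ± 0.08, adjusted p 0.0168).

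Of 32 cell cycle genes 4 rose and 1 fell, against 14.6% and 15.3% of all genes tested, so the share of rises was near the background. The D-type cyclin Ccnd2 went from 208, 419 and 557 RPM to 126, 248 and 395 RPM (-0.70 ± 0.07, adjusted p 3.8e-05), lower in 6 of 6 cultures with overlap. The inhibitor Cdkn1a rose by 0.40 ± 0.07, and Ccnd3, Ccna2 and Ccnb1 by 0.33, 0.21 and 0.21. The rises numbered 7 without male replicate 1, and the falls 3 without female replicate 2. Of 21 replication-dependent histone genes 16 rose and 0 fell, with a median of 0.33, led by Hist4h4 (0.53 ± 0.08, adjusted p 0.00105). That count moved with single cultures and was 6 without female replicate 1, 9 without female replicate 2, 8 without male replicate 2 and 5 without male replicate 3, and 2 without the block. Some genes of 1 histone family are near-identical copies, so reads may be split between those.

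Of 16 matrix and adhesion genes 6 fell and 1 rose, against 15.3% and 14.6% of all genes tested, with a median of -0.10. Tnc went from 509, 713 and 1471 RPM to 297, 429 and 1055 RPM (-0.67 ± 0.07, adjusted p 4.71e-05) and the fibronectin gene Fn1 from 13, 19.8 and 23.2 RPM to 7.1, 10.5 and 14.5 RPM (-0.76 ± 0.09), lower in 6 of 6 cultures each, with overlap. The growth factor gene Ctgf rose (1.32 ± 0.12). Without male replicate 2 the falls numbered 3. Of 12 inflammatory genes tested 3 rose, among them Nfkbia, the inhibitor of NF-kappaB, from 16.7, 21.3 and 25.3 RPM to 37.8, 44.8 and 60.6 RPM without overlap (1.11 ± 0.11). The NF-kappaB subunit genes Rela (-0.24 ± 0.06), Relb (-0.24 ± 0.08) and Nfkb2 (-0.19 ± 0.05) and the signalling inhibitor Socs3 fell, 4 in all, but 1 without female replicate 1 and 2 without female replicate 2, male replicate 2 or male replicate 3.

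Of 15 tested lipid genes 5 rose and 2 fell, against 14.6% and 15.3% of all genes tested, with a median of 0.02. Of the rises, Mfsd2a, Pdk4 and Plin4 are also on the target list. The 5 were Mfsd2a, Thrsp, the pyruvate dehydrogenase kinase gene Pdk4 (1.45 ± 0.21), the droplet coat gene Plin4 (1.26 ± 0.17) and the phosphatidate phosphatase gene Lpin1, from 57.3, 78.8 and 95.7 RPM to 112, 145 and 205 RPM without overlap (0.95 ± 0.06). The fatty acid synthase gene Fasn fell (-0.32 ± 0.07), as did Plin2, and the desaturase genes Scd1 and Scd2 did not pass. Stress lists held few or mixed calls. Of 22 integrated stress response genes, 4 rose and 4 fell, of 13 endoplasmic reticulum folding genes 1 rose and 0 fell, of 13 antioxidant genes 1 rose and 2 fell, of 17 cholesterol genes 2 rose and 1 fell, and of 18 glycolysis and hypoxia genes 2 rose and 3 fell. Among 13 heat-shock genes 4 rose and 1 fell, and Hspb1, a small chaperone, went from 0, 0.167 and 0.49 RPM to 1.99, 4.6 and 12.7 RPM without overlap (2.36 ± 0.22, adjusted p 2.06e-05). The vasodilator peptide gene Adm of the hypoxia list also rose without overlap (1.04 ± 0.07).

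The genes that fell were longer than the genes that rose. The annotated span, from the GENCODE annotation of GRCm38 for 11723 of the genes tested, had a median of 25.0 kb over all, 21.6 kb for rises and 42.9 kb for falls, and the median of the most exons in any listed transcript was 9, 8 and 12. With the genes put in 4 groups of equal size, from the shortest to the longest, the share called lower went from 9.04% through 12.4% and 16.1% to 23.8%, and the share called higher from 17.7% through 14% and 13.2% to 13.5%. The median level moved with span too, at 14.5, 21.5, 27.9 and 26.9 RPM, and its part in these shares was not tested. Without the block, 1.3% and 2.15% of the shortest and longest groups were called lower, and 2.08% and 3.62% higher.

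**Figure D4:**
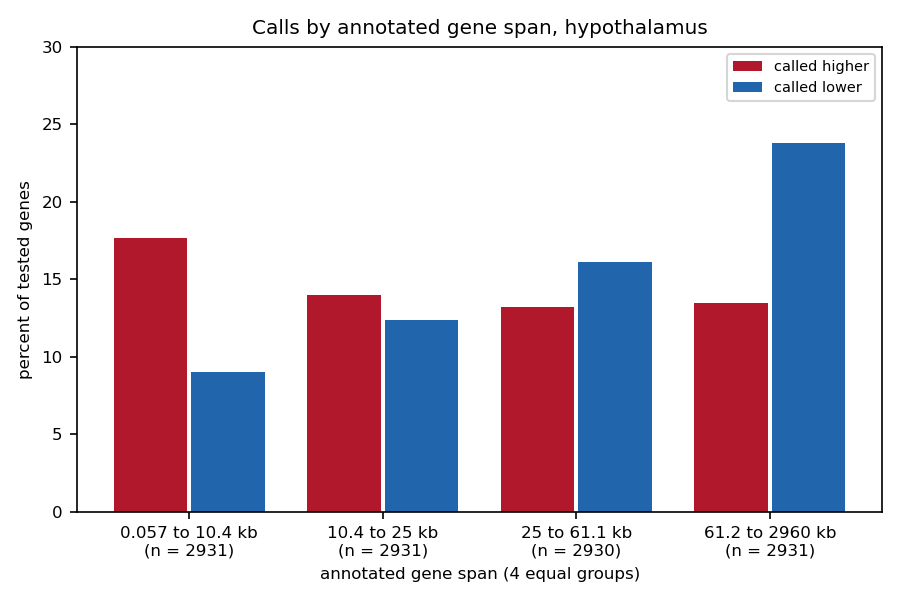
Percent of tested genes called higher (red) and lower (blue) with dexamethasone in 4 groups of equal size by annotated gene span. The share called lower climbs from 9.04% in the shortest group to 23.8% in the longest, while the share called higher goes from 17.7% to 13.5%.

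By culture, the median change of the 15 largest rises was between 2.18 and 2.72 in each culture and that of the 15 largest falls between -1.15 and -0.95, and 93.7% to 98.5% of all called genes changed in the pooled direction in each. Since these genes were chosen for agreement across the same cultures, these values describe the size in each culture and test nothing. A difference between the sexes was called for 0 of 12400 genes with limma, of which 269 had an unadjusted p under 0.05. edgeR and DESeq2 also called 0, with 262 and 57 at an unadjusted p under 0.05. Among genes at a mean of 5 RPM or more in each sex, the smallest p values belonged to Aldh1l1, Xist, Dpm1, Crebrf and Fzd10. Xist reached that level in males only through male replicate 2, being at most 0.506 RPM in male replicates 1 and 3. Fzd10, a Wnt receptor, changed by 1.00 ± 0.18 in female and 0.54 ± 0.10 in male cultures (SD, n = 3, adjusted p 1).

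The change in hypothalamus was set against that in cortex with all 24 libraries on 1 TMM scaling. It differed for 5256 of 12732 genes (41.3%), being more positive in hypothalamus for 2142 (16.8%) and more negative for 3114 (24.5%), and the median difference of all genes was -0.05. Cortex libraries held 1.28% to 2.99% ribosomal-RNA-like reads against 30.4% to 42.8% in hypothalamus, so region and library composition cannot be told apart. Of the falls called in hypothalamus, 644 of 1884 had a change more negative there than in cortex, whether cortex fell or rose. For 333 the change was more positive in hypothalamus than in cortex, and 1380 had the same sign in cortex. Of the rises, 457 of 1805 were more positive in hypothalamus and 344 less, and 1458 had the same sign in cortex. The same hypothalamus libraries gave both the calls and the differences. This tilts the counts toward larger changes in hypothalamus, so they describe and do not test.

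Immediate-early genes differed in nearly every member. Of 24, 23 were more positive in hypothalamus and 0 more negative, against 16.8% and 24.5% of all genes tested. The medians were -0.30 in hypothalamus and -2.35 in cortex. Fos was at 34.5 ± 11.3 RPM in vehicle and 29.1 ± 9.03 RPM in dexamethasone libraries of hypothalamus, and at 186 ± 48.6 and 19.3 ± 4.22 RPM in cortex (SD, n = 6, on the common scaling). The regions stood further apart in vehicle than in dexamethasone libraries. The difference in its change was 2.97 ± 0.09 (adjusted p 2.08e-12). Klf4 followed the same course, going from 10.1 ± 2.29 to 5.45 ± 0.84 RPM in hypothalamus while cortex went from 57.3 ± 13.4 to 2.80 ± 0.568 RPM, as did Ier2. The apoptosis regulator Pmaip1 went from 7.92 ± 2.05 to 9.27 ± 2.11 RPM in hypothalamus while cortex went from 117 ± 32.7 to 13.4 ± 4.28 RPM. The protease gene Adamts1 was not called in hypothalamus (-0.02 ± 0.07, adjusted p 0.869) but went from 210 ± 69.5 to 23.5 ± 8.24 RPM in cortex. Of 22 integrated stress response genes, 19 were more positive in hypothalamus, against 16.8% of all genes tested, with medians of -0.01 and -1.15.

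In the other direction, Chst2 rose by 1.72 in hypothalamus and 3.03 in cortex, a difference of -1.31 ± 0.09 (adjusted p 2.86e-08) between vehicle levels of 223 ± 61.8 and 74.4 ± 16.6 RPM and dexamethasone levels of 725 ± 142 and 604 ± 73.7 RPM. The heterochromatin protein gene Cbx5, Cdk5rap2, Acaca and Anapc1 had higher vehicle levels in hypothalamus and differences of -0.74 to -0.54. Cdk5rap2, a centrosome protein, changed by -0.46 in hypothalamus and 0.21 in cortex, and the other 3 changed by -0.09 to -0.02 in hypothalamus and by 0.52 to 0.72 in cortex. Of 31 glucocorticoid targets, 14 were more positive in hypothalamus and 8 more negative, against 16.8% and 24.5% of all genes tested. The share more negative was thus near the background. Of those more negative, Plin4 changed by 1.35 in hypothalamus and 2.67 in cortex (difference -1.32 ± 0.25, adjusted p 0.000642), Klf15 by 1.01 and 1.87, Sesn1 by 1.44 and 2.20, Glul by 1.19 and 1.87, and Fkbp5 by 2.54 and 3.17. Of those more positive, Mt2 changed by 1.78 and 0.01 in the 2 regions, Errfi1 by 1.63 and 0.01, and Nfkbia by 1.11 and -0.03, from vehicle levels that were higher in cortex for each. Fam107a (6.09 and 6.44 on the common scaling, adjusted p of the difference 0.23), Klf9 (2.12 and 2.06, 0.633) and Diras2 (-1.64 and -1.60, 0.867) had no difference past the threshold.

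**Figure D5:**
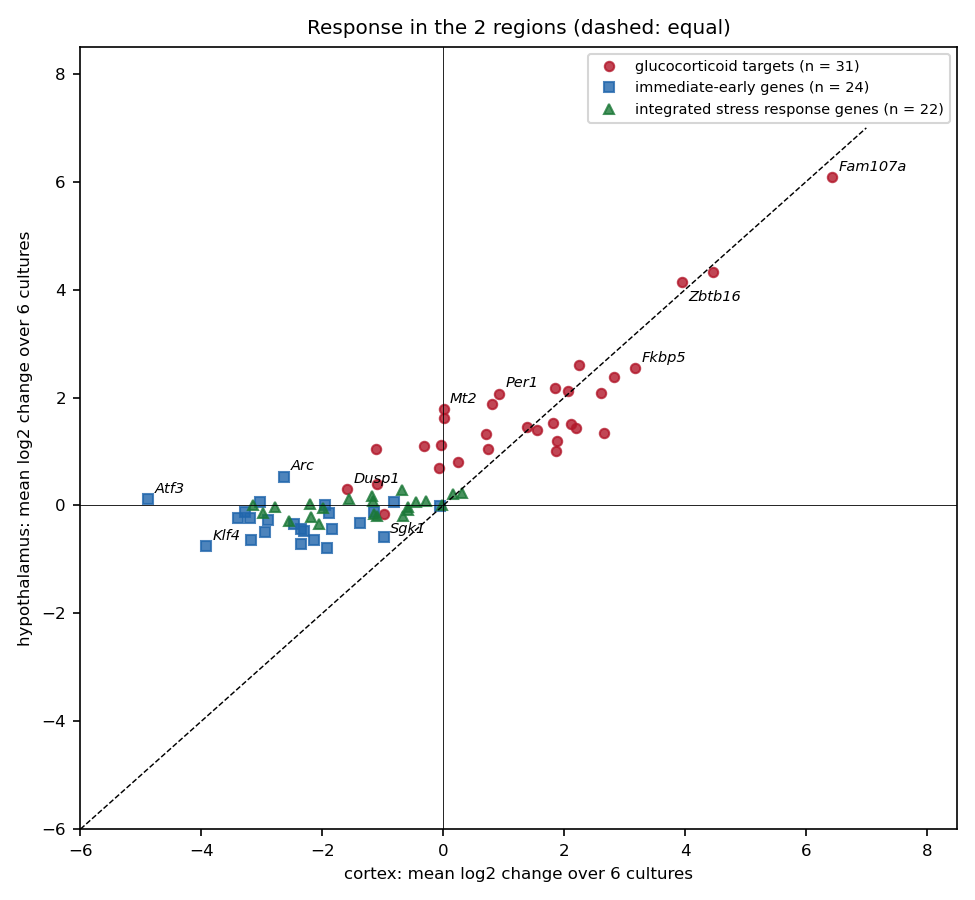
Mean log2 change over 6 cultures in hypothalamus (vertical axis) against cortex (horizontal axis) for 31 glucocorticoid targets (red circles), 24 immediate-early genes (blue squares) and 22 integrated stress response genes (green triangles), with a dashed line of equal change. Targets spread to both sides of the line up to Fam107a at 6.44 and 6.09, and immediate-early genes extend far to the left, to -4.88 for Atf3, while on the vertical axis they lie closer to 0, Klf4 at -0.76 and Arc at 0.54.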

How the data were processed

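Per the labels' protocols, total RNA was extracted with Trizol and made into stranded total RNA libraries. Per the submitters' processing notes, TopHat2 (2.0.13 and 2.0.9), HTSeq and GRCm38 were used. The annotation, the strand setting of the counting and which version served which library are not given in the sources used here, so reads of overlapping genes and near-identical copies such as histone genes are uncertain. The authors deposited a normalized signal per sample in RPM, with the 2 lanes of a sample as 1 column. They also deposited log2 fold changes (ratios) with p-values, used only to count genes with their adjusted p under 0.05. Within 0.01 read, 100% of the deposited values were whole multiples of 1 read, and reads were recovered from them. The deposited scaling differed from TMM by at most 0.0171%. Columns of per-sample values left unused numbered 0. Of 38924 entries, 27 had names turned into dates. The 4 of them under 2 shared names were dropped, and the rest stayed in the fit without being named.

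limma 3.58.1 (trend, R 4.3.3) was run on log2(RPM + 1) with a floor of 1 RPM in 6 or more of the 12 libraries, with culture as block and Benjamini-Hochberg adjusted p under 0.05. The sex difference was a limma interaction term, and the region difference was the same on reads rescaled by TMM over 24 libraries (1 RPM in at least 12). edgeR 4.0.16 (quasi-likelihood test) on the recovered reads called 3744 genes, and DESeq2 1.42.0 called 2801. The fits were also run on simulated data with a fixed dispersion and no spread between cultures in the response. Those settings are simpler than these data, so that run does not measure error rates here. Errors of changes are standard errors unless named SD. The titles number the replicates, and the 2 libraries of a number deviated from their group means together (correlations of 0.606 to 0.768 over 12400 genes), so the numbers were taken to pair the libraries.

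The members, the 22 lists (415 genes) and the rules were chosen with earlier results of these data known. Values of some members of the steroid receptor list, and its counts, are not reported here, so 21 lists are drawn. Genes named are the 15 largest called rises and the 15 largest called falls (mean level of 5 RPM or more, 1 sign in all 6 cultures), up to 5 members of each list by p, 5 genes for the sex difference and 10 for the region difference by p, 5 with the most variable change, and 5 each with the largest gain and loss in RPM. Other list members named, such as Sgk1, Mt1, Mt2, Cebpd, Atf3 and those named for their role, were added after their values were seen. Promoters are those of the first 3 rises and falls in the table, with chromosome 18 left out. Alternatives were a fit without the block, another pseudocount (0.25) and filters, TMM without ribosomal-RNA-like entries (mt-Rnr1, mt-Rnr2, Gm26924, Lars2), edgeR, DESeq2, each culture left out and each sex alone. The fits of each sex without the block were added after seeing the data.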

Additional observations from a re-analysis of the deposited data

Results flagged for a closer look

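Among 38 sets of 6 values screened for 1 value far from the others, 2 were flagged, and chance flags about 1 in 20. The sets were the changes by culture of the 15 largest rises and 15 largest falls, and library measures within each treatment. Those measures were reads in genes, the shares of mt-Rnr2 and of ribosomal-RNA-like entries, and genes at 1 RPM. Kcnk3 changed by -0.31 in male replicate 3, where the nearest other culture was at -1.01. Pde1b changed by -1.44 in female replicate 2, where the nearest was at -1.02.

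For 10 genes the change in hypothalamus minus that in cortex passed limma's interaction test. The difference was 3.25 for Pmaip1, 2.97 for Fos, 3.09 for Adamts1, 3.16 for Klf4 and 2.46 for Ier2. It was -1.31 for Chst2, -0.74 for Cbx5, -0.67 for Cdk5rap2, -0.62 for Acaca and -0.54 for Anapc1. Adjusted p ran from 2.92e-13 for Pmaip1 to 2.23e-07 for Anapc1, in a comparison where 41.3% of genes passed.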

How the results depend on the processing

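The count of calls depended most on the block for culture. Without it 526 genes were called, 325 higher and 201 lower, and the region difference was called for 1955 genes, 892 more positive and 1063 more negative. Female cultures alone gave 892 calls (529 higher, 363 lower) with the block and 105 (99 and 6) without, and male cultures alone 1624 (631 and 993) and 28 (28 and 0). Leaving out 1 culture gave 2526 to 3543 calls, 1150 to 1802 higher and 1292 to 1846 lower, and for the region difference 4781 to 5312, 1730 to 2208 more positive and 2817 to 3376 more negative. No filter gave 2553 calls of 26034 genes, a filter at 5 RPM 3313 of 9991 and the scaling without ribosomal-RNA-like entries 3680. The sex difference stayed at 0 calls in every alternative run. Of 129 named genes that were called, 0 changed sign under any alternative, but dropping the block or changing the filter cannot alter a sign. DESeq2 lost 7 of them, no filter 28, female and male cultures alone 45 and 37 with the block and 105 and 117 without it, the pooled fit without the block 76, and the loss of single cultures 2 to 16. The reads outside ribosomal-RNA-like entries, 10.13 to 15.96 M a library, limit what can be said of genes below 1 RPM.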

Other observations

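The called genes whose change varied most between cultures were the small non-coding RNAs Rny3, Rny1, Gm22513 and Gm25939 and the metabolic kinase gene Pdk4. Rny3, a Y RNA, changed by -0.19 to 2.72 in the 6 cultures and was higher in 5 of 6 (1.12 ± 0.32, adjusted p 0.0241, limma). Rny1, another Y RNA, changed by -0.27 to 2.22 and was higher in 4 of 6 (adjusted p 0.0411). Neither passed without female replicate 1, male replicate 2 or male replicate 3, where their adjusted p lay between 0.0688 and 0.127, nor with DESeq2. Pdk4 rose in 6 of 6 cultures by 0.63 to 2.60, from vehicle levels of 0.392 to 6.24 RPM.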
